A study of Mus musculus with 17 samples.

Results

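Kcnq1ot1 is a long noncoding RNA that starts in an intron of the potassium channel gene Kcnq1 and is transcribed antisense to it. The members described here are all rows of the deposited lncRNA tables whose position overlaps chr7:150389000-150483000, the stretch of Kcnq1 that holds Kcnq1ot1. This rule uses position only and no measured value. It found 2 of 23940 rows, NONMMUT064303 and NONMMUT064306, and both carry the same position, chr7:150399016-150484356. Positions are those of the files and are taken to be mm9, because on chromosome 7 they run 7.08 Mb past the last gene of the mm10 annotation. The submitters' processing notes name mm10, so the build behind the alignment and the positions is not settled here.

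The libraries were made from total RNA of male mice of the strain C57Bl/6, with no treatment, and each came from one heart chamber, the left (LV) or the right (RV) ventricle. Ages were postnatal day 0 (P0, ahead of closure of the ductus arteriosus), day 3 (P3, a transition stage) and day 7 (P7, when most heart muscle cells are terminally differentiating). Each of the groups LV P0, LV P3, LV P7, RV P0 and RV P3 held 3 libraries, and RV P7 held 2, for 17 in all. The labels call the libraries biological replicates and do not say whether the LV and RV libraries came from the same animals. Ventricle tissue holds several cell types, so in these values fewer cells of a type and less RNA per cell cannot be told apart. The tables carry no gene names, so markers of heart muscle were not analysed here.

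The locus is a standard example of genomic imprinting, in which only the copy inherited from 1 parent is active. The Kcnq1ot1 promoter lies in a control region that is methylated on the maternal copy, so the RNA is made from the paternal copy. It is unspliced, stays in the nucleus, and acts on the same chromosome to keep neighbouring genes silent, among them Cdkn1c, which encodes an inhibitor of the cell cycle, Phlda2, which limits growth of the placenta, and Slc22a18, a transporter gene. Kcnq1 itself encodes the channel subunit of a current that helps end the heart's action potential. In the RefSeq gene table of assembly GRCm38.p6, Kcnq1 contains Kcnq1ot1, the next protein-coding genes above are Cdkn1c, Slc22a18, Phlda2 and Nap1l4, and those below are Trpm5, Tssc4, Cd81 and Tspan32.

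Almost no RNA was recorded at the locus in any ventricle at any age. NONMMUT064303 measured 0.000584 FPKM (fragments per kilobase of length, scaled to library depth, as the deposited values were read) in LV P0 replicate 1. It was listed at 0 in LV P0 replicates 2 and 3, and in all libraries of LV P3, LV P7, RV P0, RV P3 and RV P7. NONMMUT064306 measured 0.0123 FPKM in the same library, LV P0 replicate 1, and was likewise listed at 0 in the other 16. For both rows, 1 library was thus above 0 and 16 were at 0, and the LV P0 group overlaps every other group at 0. As group means, NONMMUT064303 stood at 0.000195 ± 0.000337 FPKM and NONMMUT064306 at 0.00412 ± 0.00713 FPKM in LV P0 (SD, n = 3 each), and both at 0 elsewhere. In each case the SD exceeded the mean.

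**Figure D1:**
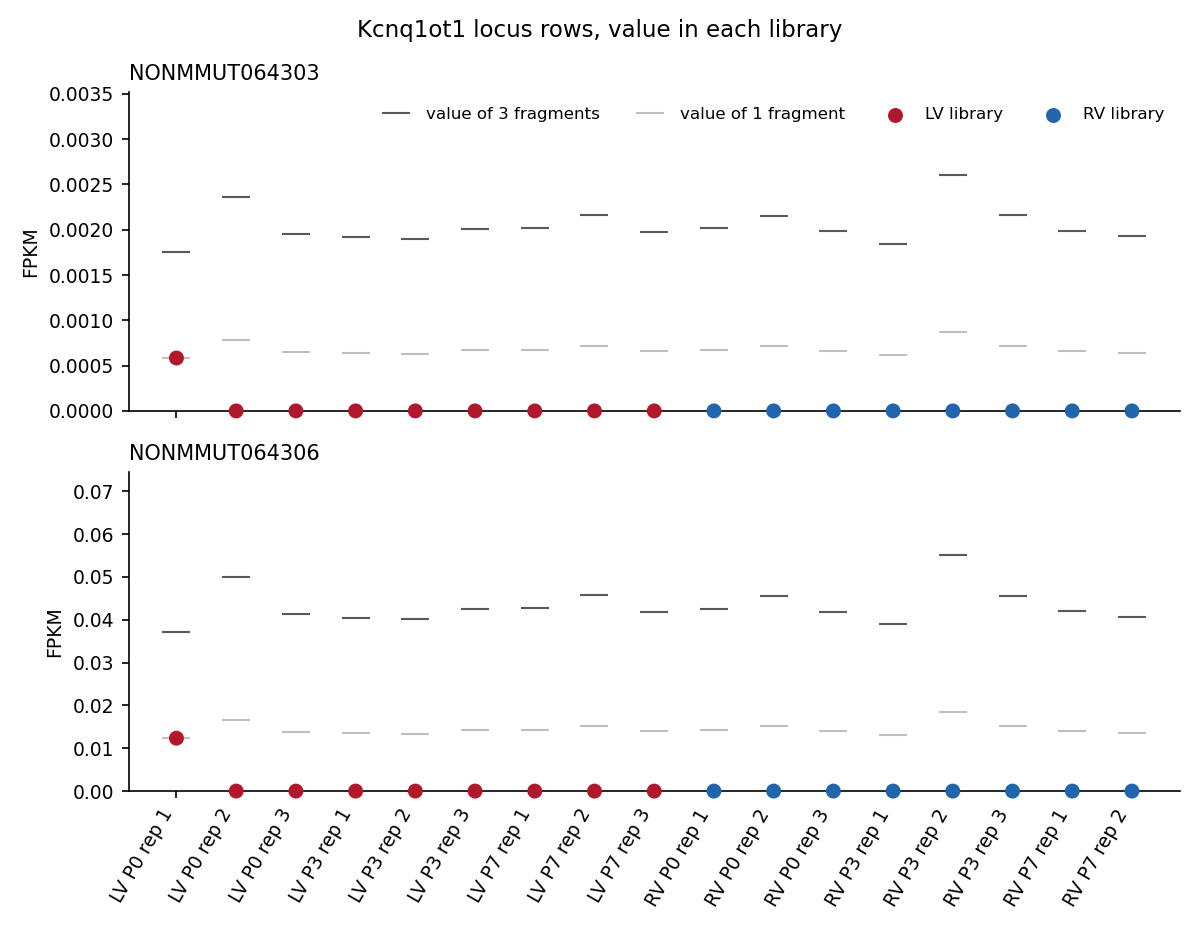
FPKM of the 2 Kcnq1ot1 locus rows in each of the 17 libraries, with LV in red and RV in blue, and bars for the value that 1 fragment and 3 fragments would have in that library at a length of 83437 bases (NONMMUT064303) and at 3945 bases, the shortest length of whole bases that its value allows (NONMMUT064306). Both points above 0 belong to LV P0 replicate 1, at 0.000584 and 0.0123 FPKM.

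The low values of the tables fall on steps. A step was taken as 0.5 fragments, which was not tested, and all depths and fragment counts rest on it. On this assumption, the steps gave the depth of a library and the number of fragments behind NONMMUT064303. In LV P0 replicate 1 the steps correspond to 20.5 M fragments, the highest of the 17 libraries, which ranged from 13.8 to 20.5 M. At 1 fragment, the value of NONMMUT064303 implies a length of 83437 bases. RefSeq gives Kcnq1ot1 a length of 83437 bases, and 1 of its 49997 genes has that length. At 0.5 fragments, the smallest step in the tables, the implied length was not a whole number of bases (41718.5), and at 1.5 fragments or more it was above the 85.3 kb span of the row. With a step taken as 0.5 fragments, the value is that of 1 fragment on an RNA as long as the unspliced RefSeq Kcnq1ot1. This length is below the 85.3 kb span of the row, so the listed position need not be the bounds of an unspliced RNA. GENCODE M21 gives the gene a single exon of 93.1 kb. Neither member had that length, and the members begin above the lower end of the searched stretch, so its lowest part held 0 rows.

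NONMMUT064306 has the same listed position, and its length is not fixed by its value. The value corresponds to 1 fragment on 3945 bases, to 2 fragments on 7890 bases, and so on up to 21 fragments on 82845 bases, the last multiple within the span of 85.3 kb. The tables do not decide between these. Whether the 2 rows list a fragment in common cannot be told apart from the tables either. Among 1654 positions held by exactly 2 rows, 33 had both rows above 0 in 1 library only, and at 2 of these it was the same library. The present locus is among these 2. The rate by coincidence was not computed, so these counts do not show whether a fragment is shared. The files give no strand, so fragments from the sense RNA of Kcnq1 cannot be separated from antisense fragments.

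The depth sets a limit on the level of NONMMUT064303 as it was counted. Over all 17 libraries, 302 M fragments in sum, it held 1 fragment, for which the exact Poisson 95% interval is 0.0253 to 5.57 fragments. This corresponds to a pooled level of 3.97e-05 FPKM with an interval of 1.01e-06 to 0.000221 FPKM. The interval covers counting error only. Fragments that the authors' counter may have left out or given to an overlapping row are not covered by it, nor by the limits that follow. For a count of 0 in a single library, a fixed limit of 3 fragments was used. It is not a maximum, nor an end of the Poisson interval. For NONMMUT064303 it lies between 0.00184 and 0.00261 FPKM in the 16 libraries at 0. Over a whole group at 0, the same limit of 3 fragments lies between 0.000646 FPKM in LV P3 and 0.000978 FPKM in RV P7. For NONMMUT064306, taken at its shortest length of 3945 bases, the group limits run from 0.0137 FPKM in LV P3 to 0.0207 FPKM in RV P7. At these lengths the levels in LV P0 are below the limits, so no ratio between groups is given.

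Against the rest of the tables, the locus stood at the lower edge. NONMMUT064303 had the second lowest mean of 23940 rows (rank 2, 3.43e-05 FPKM), and NONMMUT064306 rank 235 (0.000726 FPKM). The median row mean was 0.0301 FPKM. A row of 83437 bases at that median would hold 758 fragments over the 17 libraries, and the row held 1. No row was at 0 in all libraries, so the ranks are among rows recorded in at least 1 library. Whether the authors left out rows at 0 throughout cannot be seen here. Both members were above 0 in 1 library only, the fewest that a listed row had, as were 2781 rows (11.6%) in all. Of these 2781 rows, LV P0 replicate 1 held 203, where the other libraries held 108 to 274. Among the 1085 rows that span 50 kb or more, 177 (16.3%) were above 0 in 1 library only, and 25, both members included, had a mean at or below that of NONMMUT064306. The rank of NONMMUT064303 also reflects its length, since 1 fragment on a long RNA gives a small FPKM. Over the whole table, the 5055 rows that share a position with another row had a median mean of 0.0331 FPKM and the rows that do not 0.0267 FPKM, and 10.5% and 12.2% of them were above 0 in 1 library only. The parts that the authors' counting rules for overlapping rows and the unsettled genome build had in the members' low values were not tested.

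**Figure D2:**
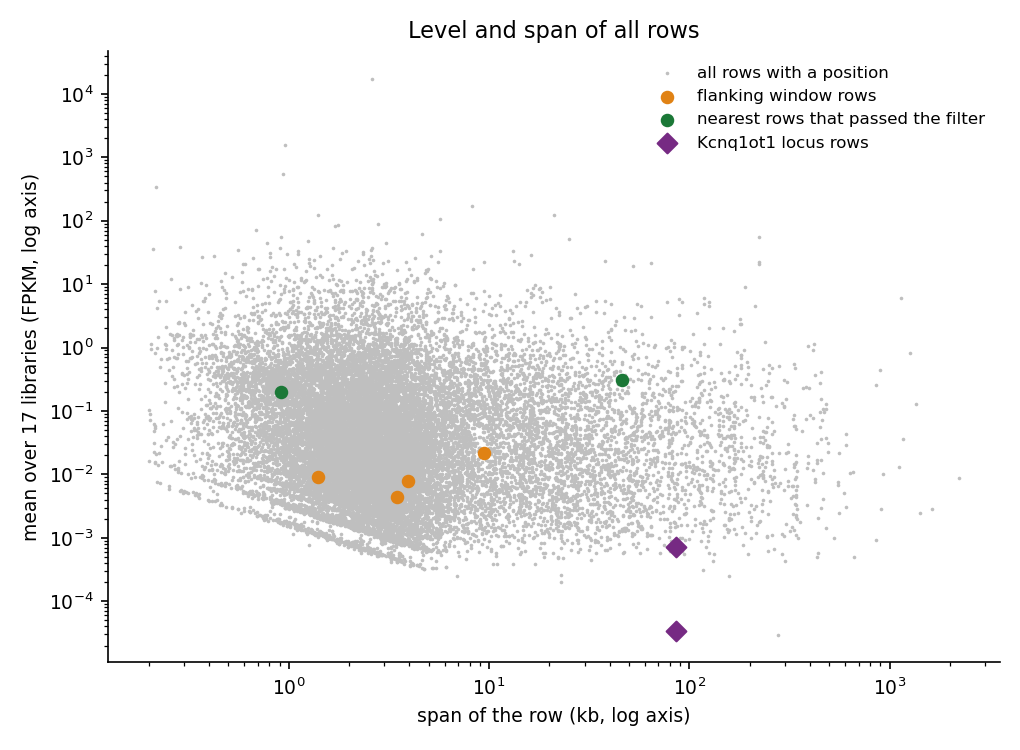
Mean FPKM over the 17 libraries against the span of the row in kb, both on log axes, for all rows with a position in grey. The Kcnq1ot1 locus rows (purple) share a span of 85.3 kb and lie at 0.000726 and 3.43e-05 FPKM, at the lower edge. They lie below the rows of the flanking window (orange), which have shorter spans. They also lie below the nearest rows that passed the filter on low values (green), which were chosen for passing it.

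Change with age and between ventricles could not be tested for the members in the planned fit, which kept the 11079 rows (46.3%) that reached 0.1 FPKM in 2 or more libraries. Both members reached 0.1 FPKM in 0 libraries. The fit without this filter held all 23940 rows and both members, and limma called 0 of 2 members in each of the 12 comparisons, with 0 at an unadjusted p under 0.05. For LV P7 against P0 the background was 3.08% of rows called without the filter and 11.2% with it. For RV P7 against P0 it was 1.59% and 5.55%. P3 against P0 called 0.547% of rows without the filter in LV and 0.806% in RV, with 1.89% and 2.46% under the filter. P7 against P3 called 0.221% in LV and 0.267% in RV, with 1.34% and 0.740% under the filter. Any change with age was called for 3.11% of rows without the filter and 10.6% with it. Between the ventricles, 0.00418% of rows were called at P0, 0% at P3, 0.0627% at P7 and 0.00418% over the ages without the filter, and 0%, 0.00903%, 0.00903% and 0.00903% with it. For a P0 to P7 change that differs between the chambers, the shares were 0.00418% and 0%. At these levels, a change of the members was not detectable.

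Without the filter, NONMMUT064306 had a log2 change of -0.06 ± 0.05 (SE) for LV P7 against P0, with a limma adjusted p of 0.622. For LV P3 against P0 the log2 change was the same, with a limma adjusted p of 0.785, and for RV against LV at P0 the limma adjusted p was 0.934. All of these rest on the single value in LV P0 replicate 1, and without that library both rows were at 0 in all that remained. NONMMUT064303 had a limma adjusted p of 1 for LV P7 against P0.

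The neighbourhood of the locus was sparse in the tables, which list no row that was at 0 in all libraries. Of the flanking windows, each as long as the searched stretch, the lower one held 0 rows and the upper one 4, and 0 of these 4 passed the filter. The first of them, NONMMUT064314 at chr7:150483603-150487522, overlaps the upper end of the members' listed position by 754 bases, at the end where Kcnq1ot1 starts. Whether it overlaps the RNA behind NONMMUT064303 cannot be told, since the implied length of that RNA is below the listed span. NONMMUT064314 was above 0 in 7 of 17 libraries, with a median of 0 and a highest value of 0.0393 FPKM in RV P3 replicate 1. NONMMUT064316, which lies 24.3 kb above the members, was also above 0 in 7 libraries, with a highest value of 0.143 FPKM in RV P3 replicate 2, the library of lowest depth. The other 2 rows, NONMMUT064321 and NONMMUT064322, were above 0 in 4 and 3 libraries, at up to 0.0428 and 0.0415 FPKM. All 4 were above 0 in more libraries than the members were.

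The nearest rows on each side that passed the filter were chosen after their values were seen. Below the members, 145 kb away, NONMMUT064297 at chr7:150207689-150253976 was above 0 in 17 of 17 libraries. It measured 0.365 ± 0.130 FPKM in LV P0, 0.311 ± 0.0126 in LV P3 and 0.222 ± 0.0373 in LV P7 (SD, n = 3 each). The RV P0 libraries averaged 0.364 ± 0.0504 FPKM and the RV P3 libraries 0.295 ± 0.132 (SD, n = 3 for both groups), while RV P7 averaged 0.301 ± 0.0301 FPKM (SD, n = 2). Above the members, 164 kb away, TCONS_00053982 at chr7:150648065-150648982 ranged from 0 to 0.522 FPKM with a median of 0.177 FPKM, and was above 0 in 16 of 17 libraries. The F test of limma for any change with age gave an adjusted p of 0.704 for NONMMUT064297 and 0.737 for TCONS_00053982, so neither was called. Between these 2 rows lay 6 rows, the 2 members and the 4 of the upper window, and 0 of the 6 passed the filter.

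**Figure D3:**
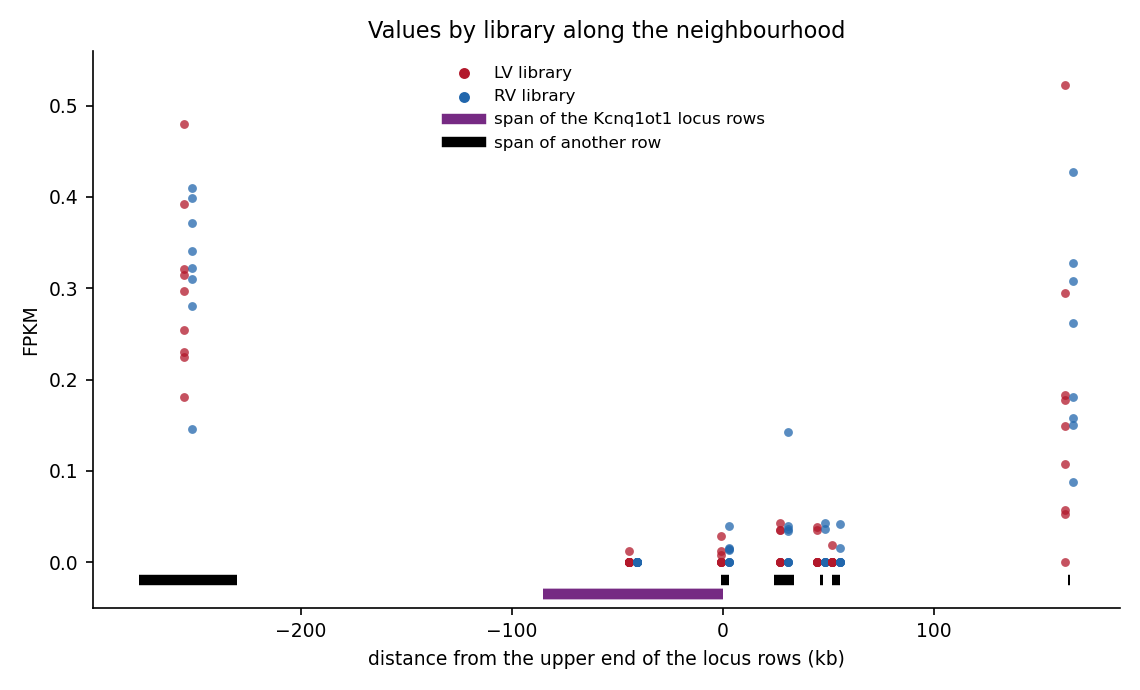
FPKM of each library for the locus rows, the 4 rows of the upper flanking window and the nearest row on each side that passed the filter, against distance in kb from the upper end of the locus rows, with LV in red and RV in blue and bars for the span of each row. The locus rows lie at 0 except for LV P0 replicate 1, while NONMMUT064297 on the left lies between 0.146 and 0.480 FPKM.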

How the data were processed

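The authors deposited 1 table per library, with an ID, a position and a value for each of the same 23940 rows. STAR 2.4.0j and mm10 are named, per the submitters' processing notes; not given in the sources used here are annotation, counter and unit. The deposited values were read as FPKM because low values times the span fall on whole multiples of a step (within 0.02 of a whole number for 64.8% to 68.8% of values of at most 40 steps); a step was taken as 0.5 fragments, so depth is inferred. Lengths were compared with RefSeq and GENCODE by size only, and no position was converted. The shallowest library was RV P3 replicate 2, with 13.8 M fragments and 49.2% of rows at 0.

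On log2(FPKM + 0.1), limma 3.58.1 (R 4.3.3) was fitted over all 17 libraries in 6 groups, with a variance trend and robust moderation, two-sided, Benjamini-Hochberg adjusted over all rows tested and called under 0.05. The fit was tested on simulated data, but the outcome is not given here and nothing about the members is drawn from it. The p-values compare a group difference with the moderated spread between libraries. The rule was to name up to 8 members that passed the filter by mean level, the member of widest span that passed, and any member called. No member passed, so both are given. The mean level and the rows most like the locus needed such a member. The mean was therefore taken over both rows, and likeness was not computed. The members and lists were chosen with earlier results of these data known.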

Additional observations from a re-analysis of the deposited data

How the results depend on the processing

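The count of locus rows called was 0 in all 12 comparisons and under each of the 25 or 26 alternatives per comparison: pseudocounts of 0.01 and 1, no filter, a filter at 1 FPKM, median scaling, the replicate block, only the compared groups in the fit, no variance trend, values summed per position, and each of the 17 libraries left out. The members entered the fit in 1 of these settings, the one without a filter, so the other settings say nothing about their stability. The mean over both rows in LV P0 was 0.00216 FPKM, 0.00200 after median scaling, and between 0 and 0.00323 with a library left out, with 0 without LV P0 replicate 1. In the other 5 groups it was 0 throughout. The limma adjusted p for any change with age ran from 0.422 to 0.915 for NONMMUT064297 and from 0.438 to 0.878 for TCONS_00053982 over 24 alternatives each. The lowest for NONMMUT064297 came from values summed per position, where any other rows at its position are added to it. Same-numbered LV and RV libraries of an age deviated together, with low r (0.0451 to 0.172 over 8 pairs). All of these lay above the 16 pairs of other numbers (-0.130 to 0.0295). Deviations were taken from the group mean and sum to 0 within a group. A positive r for same-numbered pairs therefore lowers r for the others, which are not an independent background. The labels do not pair the libraries, the main fit did not either, and whether they share animals was not tested. With the replicate block, limma called 11 rows of the whole table between the ventricles at P3 in place of 1, 2 at P7 in place of 1, 5 over the ages in place of 1, and 1 in place of 0 for the difference in the P0 to P7 change; 0 of these were locus rows. On the assumed step, NONMMUT064303 held 1 fragment over all 17 libraries, so no change of it was detectable.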
